A study of Mus musculus with 4 samples.

Results

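Constitutive distal regions are stretches of open chromatin that lie away from the ends of protein-coding genes and were called accessible in every library of a small series on mouse bone marrow-derived myeloid cells. They were chosen by merging the overlapping accessible intervals of the 4 deposited lists on chromosomes 1 to 19 and X. A merged region was kept when it held an interval from each of the 4 lists, lay over 2.5 kb from every annotated end of a protein-coding gene, lay inside or within 100 kb of such a gene, and was under 1500 bp wide. The rule left 27567 members out of 120423 merged regions, which was 22.9% of all (exact 95% interval 22.7 to 23.1%), 32.5% of the distal regions (32.2 to 32.8%) and 61.8% of the 44591 regions called in all 4 lists (61.4 to 62.3%). Being called in every library is what chose them, so their presence everywhere is a description and not a result.

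The assay was Omni-ATAC-seq, which reads out open DNA by where a transposase can place its adapters, mostly between nucleosomes. The groups were Cxcr3-/- monocytes, WT monocytes, Cxcr3-/- CMP/GMP and WT CMP/GMP, all of the C57BL/6J strain and all cultured, with 1 library in each. CMP/GMP are common myeloid progenitors and granulocyte-monocyte progenitors, labelled as a mixture, and Cxcr3 encodes a chemokine receptor that was knocked out in the Cxcr3-/- mice in a study of macrophages in liver cancer. The labels give hepatocellular carcinoma as the disease state of every sample, whereas its design text speaks of in vitro culture, and the labels do not state the deleted part of the gene or whether mice were pooled. Since each group holds 1 library, differences could not be set against a spread between replicates, p-values are left out, and every interval below covers counting error only.

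Distal accessible regions include enhancers, which are bound by transcription factors and act on genes at a distance, insulators bound by the architectural protein CTCF, and starts of transcripts that an outline of the main genes misses. In blood progenitors many such regions are opened by pioneer and lineage factors such as PU.1, C/EBP and RUNX1 before the genes they serve are switched on. Regions that stay open from progenitor to monocyte can therefore still differ in how open they are.

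The sequence of distal regions was not analysed here beyond the part that RefSeq (GRCm38.p6) gives as 300-base windows around annotated starts, from 250 bases before a start to 50 after it. The window of such a start, inside a gene's outline or of an lncRNA gene, overlapped 784 members for protein-coding genes and 580 for lncRNA genes. A member is said to have a start where it shares a base with that window. The start itself can lie up to 250 bases outside the member. The windows of 3 members follow, on the strand of the transcript. The 1110004F10Rik window belonged to the member with a start that ranked best over the 4 libraries, the Gm51489 window to the member with an lncRNA start that was furthest above CMP/GMP in monocytes, and the E130018N17Rik window to the one furthest below. Capitals mark matches to 7 short motifs or to the CTCF core motif, searched on both strands: PU.1 by GAGGAAGT, C/EBP by TTGCNNCAA, RUNX by TGTGGTT, AP-1 by TGANTCA, ETS by CCGGAAGT, the E-box by CAGCTG and GATA by AGATAA.
1110004F10Rik, chr7:116093130-116093429, plus strand: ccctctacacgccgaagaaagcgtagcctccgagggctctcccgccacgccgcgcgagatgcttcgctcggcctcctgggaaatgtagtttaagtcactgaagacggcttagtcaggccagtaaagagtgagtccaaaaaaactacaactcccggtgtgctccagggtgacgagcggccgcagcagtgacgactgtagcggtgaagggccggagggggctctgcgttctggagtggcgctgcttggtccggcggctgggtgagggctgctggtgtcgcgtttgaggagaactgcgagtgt
Gm51489, chr7:75822288-75822587, plus strand: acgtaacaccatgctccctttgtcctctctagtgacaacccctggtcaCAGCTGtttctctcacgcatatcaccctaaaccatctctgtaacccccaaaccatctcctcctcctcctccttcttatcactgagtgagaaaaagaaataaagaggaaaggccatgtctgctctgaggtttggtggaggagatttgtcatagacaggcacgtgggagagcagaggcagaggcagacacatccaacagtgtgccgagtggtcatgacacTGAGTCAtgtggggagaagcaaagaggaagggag
E130018N17Rik, chr2:168154464-168154763, minus strand: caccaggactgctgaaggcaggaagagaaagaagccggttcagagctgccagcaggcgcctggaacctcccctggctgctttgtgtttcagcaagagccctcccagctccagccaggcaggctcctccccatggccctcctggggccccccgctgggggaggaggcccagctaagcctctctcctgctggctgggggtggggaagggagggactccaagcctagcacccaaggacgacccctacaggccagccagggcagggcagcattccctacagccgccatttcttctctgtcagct

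The 1110004F10Rik window was rich in G and C (61.7%) and held CpG at 0.93 of the number its base composition predicts, as CpG island starts do, and none of the motifs was in it. The Gm51489 window held an E-box and an AP-1 match and had CpG at 0.21 of the predicted number. E130018N17Rik had 65.3% G and C but CpG at only 0.16 of the predicted number, and none of the motifs was in it.

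Of the 8 motifs, the CTCF core differed most in frequency between the lncRNA starts of the members and all windows. It matched 33 of 663 windows (4.98%, 3.45 to 6.92%), against 0.557% of all 32851 windows and 9 of 906 lncRNA windows in constitutive regions at gene ends (0.993%, 0.455 to 1.88%). The 89 lncRNA windows of distal regions called only in monocytes held 4 such matches (4.49%, 1.24 to 11.1%), which is not distinguishable from the members at this number of windows. A match describes letters and does not show that CTCF was bound. Coding windows of the members held 10 matches in 886 (1.13%, 0.543 to 2.07%), an interval that holds the 0.557% of all windows. The 5 members of best rank with a CTCF core match inside the member follow, at coding or lncRNA starts. Only Gm39228 among them is an lncRNA gene. They are shown with 20 bases on either side where the window reached that far, with the match in capitals.
Dhx30, chr9:110101084-110101135, minus strand: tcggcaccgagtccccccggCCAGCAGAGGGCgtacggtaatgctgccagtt
Echdc1, chr10:29313514-29313549, plus strand: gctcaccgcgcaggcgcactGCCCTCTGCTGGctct
Gm39228, chr8:94183303-94183354, plus strand: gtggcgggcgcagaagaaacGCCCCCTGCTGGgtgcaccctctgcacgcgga
Rsad1, chr11:94549268-94549319, minus strand: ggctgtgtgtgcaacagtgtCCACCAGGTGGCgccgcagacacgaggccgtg
Dgkz, chr2:91963726-91963777, minus strand: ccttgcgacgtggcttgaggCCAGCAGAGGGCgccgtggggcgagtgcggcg
The match was on the transcript strand at Dhx30, Rsad1 and Dgkz and on the opposite strand at Echdc1 and Gm39228. Dhx30 encodes an RNA helicase and Dgkz a diacylglycerol kinase. At Dhx30 the summit held 44 tags in Cxcr3-/- monocytes and 70 in WT monocytes, against 96 in Cxcr3-/- CMP/GMP and 78 in WT CMP/GMP.

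The AP-1 letters, bound by Fos and Jun dimers, matched 75 of 663 lncRNA windows of the members (11.3%) and 9.31% of all lncRNA windows, a value inside the members' exact interval. They matched 31 of 89 lncRNA windows in distal regions called only in monocytes (34.8%) and 2 of 65 in those called only in CMP/GMP (3.08%, 0.375 to 10.7%). The members thus stood between the 2 kinds of cell-type-restricted region in this count. PU.1 letters were in 50 of 663 lncRNA windows of the members (7.54%, 5.65 to 9.82%), against 3.33% of all lncRNA windows. Monocyte-only regions had 6.74% (2.51 to 14.1%) and CMP/GMP-only ones 3.08% (0.375 to 10.7%), and both intervals meet that of the members. In coding windows of the members PU.1 letters matched 37 of 886 (4.18%, 2.96 to 5.71%), an interval that holds the 3.15% of all coding windows. GATA letters, bound by factors of erythroid cells and progenitors, were in 9.05% of the members' lncRNA windows (6.98 to 11.5%) and 14.0% of all lncRNA windows. They were in 8.99% of the 89 monocyte-only windows (3.96 to 16.9%), near the members, and in 16.9% of the 65 CMP/GMP-only ones (8.76 to 28.3%). The 5 best-ranked members with an AP-1 match inside them carry these stretches, shown because this motif differed most between the 2 kinds of restricted region.
Osbpl2, chr2:180119056-180119091, plus strand: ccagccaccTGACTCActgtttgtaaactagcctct
Gm9875, chr2:13558674-13558720, plus strand: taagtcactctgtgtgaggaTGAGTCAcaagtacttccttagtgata
Gm51550, chr8:109750810-109750856, plus strand: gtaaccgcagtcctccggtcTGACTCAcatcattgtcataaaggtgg
Dhcr7, chr7:143830088-143830134, plus strand: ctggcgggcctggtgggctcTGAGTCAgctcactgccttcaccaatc
Rfx5, chr3:94953932-94953978, plus strand: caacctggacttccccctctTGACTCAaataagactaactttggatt

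Among 36 members with a CTCF core match of this kind, 19 had enough tags for a ratio in both genotypes, and the median log2 ratio of monocytes over CMP/GMP was -0.43 in Cxcr3-/- and -0.45 in WT. None of the 19 was over 2-fold higher in monocytes in both genotypes and 1 was over 2-fold lower (5.26%), where members with a ratio in both genotypes had 12.6% higher and 3.89% lower and all regions called in the 4 lists had 8.4% and 2.86%. Among 103 members with an AP-1 match, 76 had a ratio in both genotypes, with medians of 0.16 in Cxcr3-/- and 0.29 in WT. Of these 76, 9 were over 2-fold higher in monocytes in both genotypes (11.8%), near the 12.6% of members with a ratio in both, and 0 were lower. These are small numbers of regions from 4 libraries and were not tested.

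Members were narrower and weaker than constitutive regions at gene ends but wider than cell-type-restricted distal ones. Their median width was 403 bp (quartiles 301 and 538), against 622 bp for the 14680 constitutive regions at gene ends, 236 bp for the 13775 distal regions called in both monocyte lists only and 239 bp for the 6592 called in both CMP/GMP lists only. A member joins intervals from every list and a restricted region only those from the lists of its cell type. Their widths are therefore not on an equal footing. Of the members 15912 lay inside a protein-coding gene, which is 57.7% (57.1 to 58.3%), compared with 63.9% (63.1 to 64.7%) of monocyte-only and 57.8% (56.5 to 58.9%) of CMP/GMP-only distal regions. The median member lay 19075 bp from the nearest end of a protein-coding gene. Neighbouring members were a median of 20843 bp apart, and 18.5% of neighbouring pairs lay within 5 kb.

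The tags stacked at a region's highest summit, called summit tags here, were recovered from the authors' deposited fold and −log10 p and give the depth behind each value. The median member held 26 summit tags in Cxcr3-/- monocytes, 33 in WT monocytes, 38 in Cxcr3-/- CMP/GMP and 24 in WT CMP/GMP. At gene ends the medians were 39, 54, 67 and 39 in the same order. The libraries differed in background, with a most frequent expected count of 1.08 and 0.956 tags at a summit in Cxcr3-/- and WT monocytes, against 2.43 and 1.59 in Cxcr3-/- and WT CMP/GMP. The lists held 78244, 98257, 80171 and 69521 intervals.

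Members made up more of the strongest intervals in monocytes than in CMP/GMP. Of the 1000 intervals of best q in a list, 31.3% in Cxcr3-/- monocytes and 25.8% in WT monocytes lay in members, against 15.8% in Cxcr3-/- CMP/GMP and 15.5% in WT CMP/GMP. Over the best 10000 the shares were closer, at 43.7% and 41.6% in Cxcr3-/- and WT monocytes and 39.5% and 40.2% in Cxcr3-/- and WT CMP/GMP. Regions at gene ends took 62.5% and 71.2% of the best 1000 in Cxcr3-/- and WT monocytes, and 82.0% and 81.8% in Cxcr3-/- and WT CMP/GMP.

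Annotated starts and tRNA genes were more frequent in members than in restricted distal regions. A RefSeq start of a protein-coding gene lay in 2.84% of members (2.65 to 3.05%), in 0.356% of monocyte-only distal regions (0.263 to 0.470%) and in 0.455% of CMP/GMP-only ones (0.307 to 0.649%). A start of an lncRNA gene lay in 2.10% of members (1.94 to 2.28%), against 0.617% and 0.941%. A tRNA gene, a short gene transcribed by RNA polymerase III from a promoter inside it, lay in 78 members (0.283%, 0.224 to 0.353%), against 12 monocyte-only (0.0871%) and 2 CMP/GMP-only regions (0.0303%). An snRNA gene lay in 26 members (0.0943%), 3 monocyte-only and 1 CMP/GMP-only regions, and an snoRNA gene in 10 members (0.0363%), 4 monocyte-only (0.0290%) and 5 CMP/GMP-only regions (0.0758%), numbers too small to tell apart. The wider members give a feature more room, which the shares do not correct for.

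**Figure D1:**
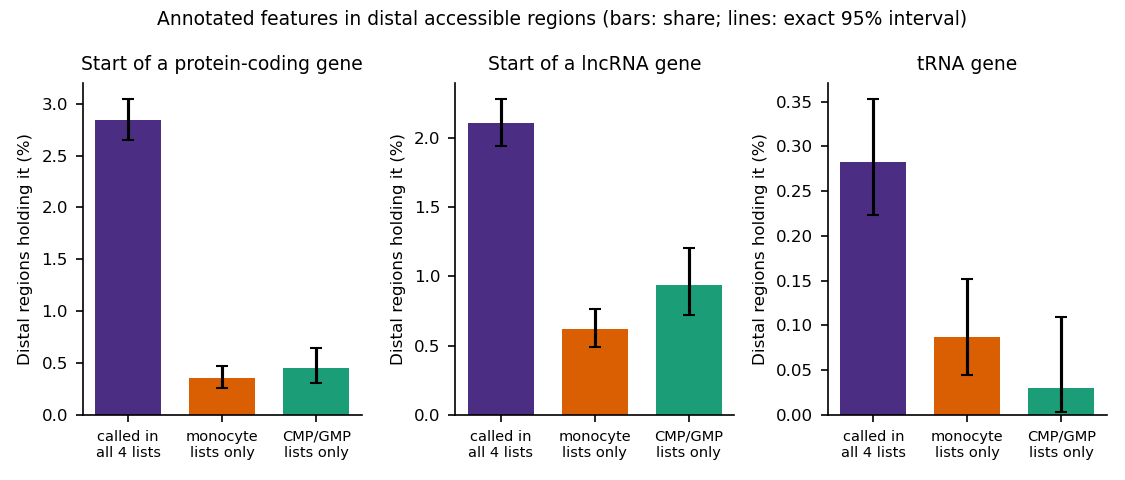
Share of distal regions (%, vertical axes) that hold a start of a protein-coding gene, a start of an lncRNA gene or a tRNA gene, for regions called in all 4 lists, in the monocyte lists only and in the CMP/GMP lists only; bars are shares and lines exact 95% intervals. The bars of the regions called in all 4 lists, at 2.84, 2.10 and 0.283%, stand above both other classes and their intervals do not meet those of the others.

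Windows of coding starts that overlapped members looked less like CpG islands than those at gene ends. The 886 coding windows of the members had a median of 60.0% G and C and CpG at 0.68 of the predicted number, against 62.0% and 0.80 for 9381 windows at gene ends and 53.0% and 0.27 for 53 windows in monocyte-only distal regions. CpG reached at least 0.6 of the predicted number in 60.4% of the members' coding windows and in 29.3% of their lncRNA windows, and in 83.0% of lncRNA windows at gene ends. ETS letters, common at such promoters, were in 5.87% of the members' coding windows (4.41 to 7.63%) and in 9.95% of those at gene ends (9.35 to 10.6%).

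Hairpins of miRNAs lay in 18 members, which held 20 of the 1005 listed hairpins. The mature sequences of 4 are shown with the seed, bases 2 to 8 from the 5′ end, in capitals: let-7i and miR-155, known from myeloid cells, miR-9, whose hairpin shares a member with that of miR-9b, and the one whose member differed most between cell types. No seed was shared among them.
mmu-let-7i-5p: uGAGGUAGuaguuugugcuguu
mmu-miR-9-5p: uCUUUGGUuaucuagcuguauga
mmu-miR-155-5p: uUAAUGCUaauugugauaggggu
mmu-miR-6353: uAGCAGCAcguauuuauccuauu
let-7i-5p belongs to the let-7 family, which represses Lin28 and other growth genes, and miR-155-5p is made from a transcript that activated macrophages induce. The member over Mirlet7i at chr10:122985322-122986605 held 39 tags in Cxcr3-/- monocytes, 57 in WT monocytes, 63 in Cxcr3-/- CMP/GMP and 37 in WT CMP/GMP, and the scaled ratio of monocytes over CMP/GMP was near even (log2 -0.01 in Cxcr3-/-, 0.24 in WT). The member over Mir155 was weak everywhere, with 16 and 17 tags in Cxcr3-/- and WT monocytes and 23 and 27 in Cxcr3-/- and WT CMP/GMP. Over Mir6353, inside Pid1, the tags were 55 and 70 in Cxcr3-/- and WT monocytes against 19 and 13 in Cxcr3-/- and WT CMP/GMP, and both monocyte libraries stood above both CMP/GMP libraries (log2 ratio 2.21 in Cxcr3-/- and 2.05 in WT).

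To compare libraries, summit tags were divided by 0.843 for Cxcr3-/- monocytes, 1.07 for WT monocytes, 1.35 for Cxcr3-/- CMP/GMP and 0.822 for WT CMP/GMP, the median ratio of each library to the geometric mean over the regions called in all 4 lists. Ratios were read only where the 2 libraries compared averaged at least 30 tags. That minimum left 15693 members for monocytes against CMP/GMP in Cxcr3-/-, 13393 in WT, 13451 for Cxcr3-/- against WT in monocytes and 14438 in CMP/GMP. The other members were too thinly covered for a ratio. Because a member had to be called in all 4 lists, regions lost completely in a cell type are outside this comparison, and in bulk samples a smaller share of cells with an open region and less opening per cell cannot be told apart.

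Although called in every library, members varied more between the cell types than regions at gene ends did, and those with at least 30 tags mostly toward monocytes. In Cxcr3-/- 2604 of 15693 members were over 2-fold higher in monocytes (16.6%) and 1390 lower (8.86%), while 13.1% of all regions called in both libraries were higher and 7.44% lower. In WT 2507 of 13393 members were over 2-fold higher in monocytes (18.7%) and 883 lower (6.59%), against a background of 13.4% higher and 5.22% lower. At gene ends 3.90% were over 2-fold higher and 5.39% lower in Cxcr3-/-, and 5.12% higher and 2.93% lower in WT. The SD of the log2 ratio over members was 0.91 in Cxcr3-/- and 0.87 in WT, with a median counting error of 0.31 and 0.32, and over regions at gene ends it was 0.61 and 0.58. With no minimum on tags, 3714 of 27567 members were over 2-fold higher in monocytes and 2243 lower in Cxcr3-/-, but 3307 higher and 3410 lower in WT (49.2% higher), so the lean toward monocytes in WT holds only for the better covered members.

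The median log2 ratio was 0.14 for members and -0.13 at gene ends in Cxcr3-/-, and 0.28 and 0.03 in WT. A common factor moves all of these together, so the distal members lay above the gene ends under every scaling, while the direction of a single median does not have that standing. Scaling to background tags added 0.49 in Cxcr3-/- and 1.11 in WT to every log2 ratio of monocytes over CMP/GMP, and then 90.9% of the members past 2-fold in Cxcr3-/- and 98.8% in WT were higher in monocytes, against 65.2% and 74.0% with the scaling used here. Within members the shares were higher further from gene ends. Of members 2.5 to 5 kb away 18.5% were over 2-fold apart in Cxcr3-/- and 20.7% in WT, and of those over 100 kb away 31.2% and 29.0%.

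**Figure D2:**
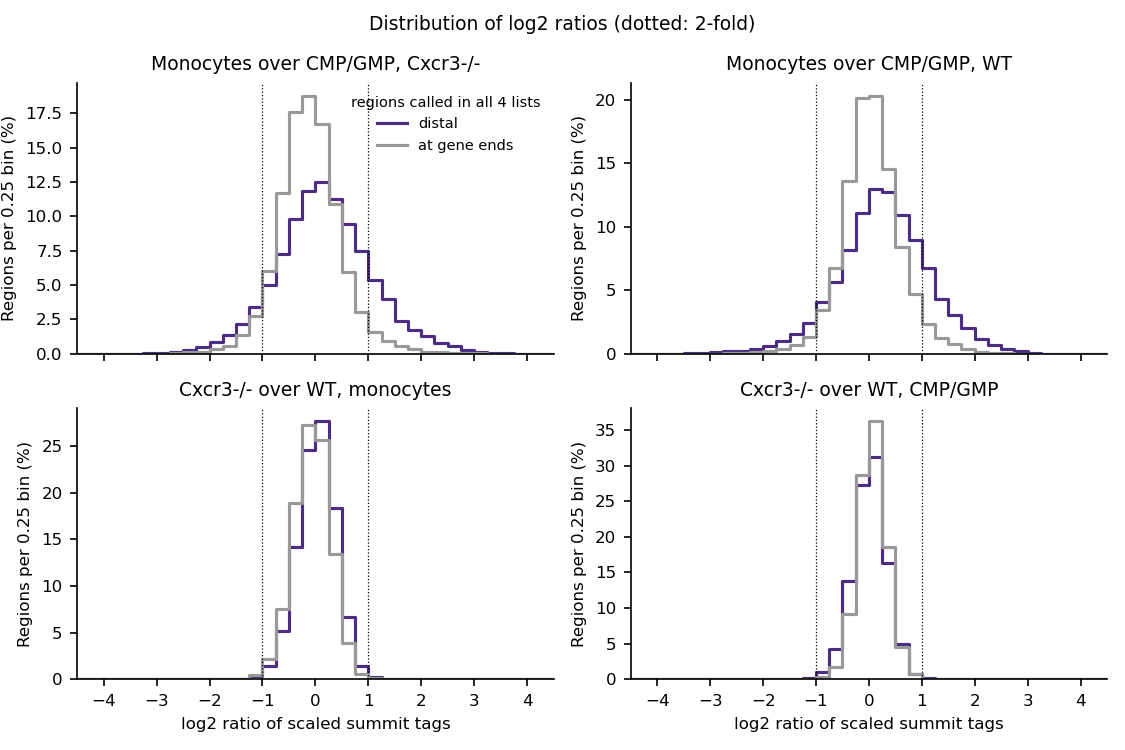
Distribution of log2 ratios of scaled summit tags (horizontal axes) as the percentage of regions in each 0.25-wide bin (vertical axes), for constitutive distal members and for constitutive regions at gene ends, one panel for each comparison; dotted lines mark 2-fold. The members spread more widely than regions at gene ends between cell types (SD 0.91 against 0.61 in Cxcr3-/-, 0.87 against 0.58 in WT), whereas between genotypes both lie mostly within 2-fold.

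The 2 genotypes, which share no library in this comparison, gave much the same picture region by region. Of 12792 members with a ratio in both, 1610 were over 2-fold higher in monocytes in both genotypes (12.6%, with 8.4% of all regions called in all 4 lists) and 497 lower in both (3.89%, background 2.86%). None went over 2-fold in opposite directions. Spearman's correlation of the ratios over the 12792 members was 0.80, and 0.58 over 10506 regions at gene ends, which vary less. The shared 1610 were 68.0% of the members over 2-fold higher in Cxcr3-/- and 70.3% of those over 2-fold higher in WT.

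**Figure D3:**
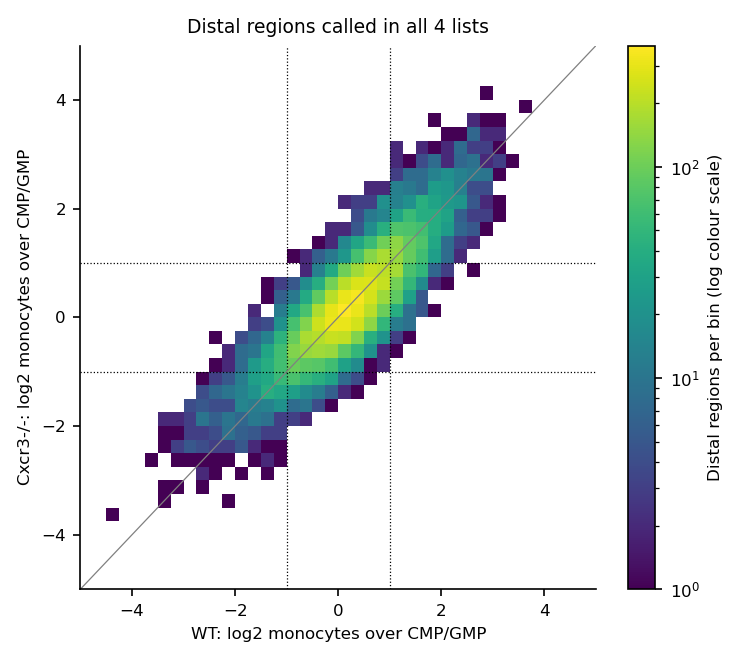
Log2 ratio of monocytes over CMP/GMP in Cxcr3-/- (vertical axis) against the same in WT (horizontal axis) for 12792 members with at least 30 tags on average in each pair; colour gives the number of members per bin on a log scale, dotted lines mark 2-fold and the grey line equality. The cloud follows the line, with 1610 members past 2-fold toward monocytes and 497 past 2-fold toward CMP/GMP in both genotypes, and the corners of opposite direction hold 0.

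Members with an annotated start varied less between cell types than the rest. With a protein-coding start 4.62% were over 2-fold higher in monocytes and 4.00% lower in Cxcr3-/-, and 6.59% and 3.62% in WT. With an lncRNA start the shares were 7.63% and 7.34% in Cxcr3-/-, and 10.9% and 4.85% in WT. With none of the listed features they were 17.4% and 9.13% in Cxcr3-/-, and 19.6% and 6.81% in WT. Members with a coding start thus came close to regions at gene ends.

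The members furthest toward monocytes in both genotypes carried at most 32 tags in CMP/GMP and at least 99 in monocytes. Inside Frmd4a, which encodes a scaffold protein of cell polarity, the member at chr2:4318086-4318577 held 129 tags in Cxcr3-/- monocytes and 143 in WT monocytes, against 14 in Cxcr3-/- CMP/GMP and 9 in WT CMP/GMP. Both monocyte libraries stood far above both CMP/GMP libraries, with log2 ratios of 3.88 (3.08 to 4.79) in Cxcr3-/- and 3.61 (2.64 to 4.77) in WT.
A member 34764 bp outside Cd93, a C-type lectin-like receptor found on monocytes and endothelium, held 151 and 172 tags in Cxcr3-/- and WT monocytes against 30 and 18 in Cxcr3-/- and WT CMP/GMP (log2 3.01 and 2.88). Inside Tns3, which encodes the focal adhesion protein tensin 3, the tags were 99 and 122 in Cxcr3-/- and WT monocytes against 19 and 12 in Cxcr3-/- and WT CMP/GMP (3.06 and 2.97). Inside Ndst3, an enzyme of heparan sulfate modification, they were 129 and 138 in Cxcr3-/- and WT monocytes against 12 and 14 in Cxcr3-/- and WT CMP/GMP (4.10 and 2.92). In each of these the monocyte and CMP/GMP values do not overlap, which follows from choosing them by this ratio. The other 6 lay inside or nearest to Tmem230, Atp6v1g3 (a subunit of the proton pump V-ATPase), Itprid2, Gucy2g (a guanylyl cyclase), Larp4b (an RNA-binding protein) and N4bp2l2, with log2 ratios between 2.98 and 3.53 in Cxcr3-/- and 3.06 and 3.23 in WT.

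The members furthest toward CMP/GMP held at most 22 tags in monocytes. Inside Mapk4, an atypical MAP kinase gene, the member at chr18:73948689-73949464 held 10 tags in Cxcr3-/- monocytes and 7 in WT monocytes, against 192 in Cxcr3-/- CMP/GMP and 112 in WT CMP/GMP. Its log2 ratio was -3.58 (-4.67 to -2.67) in Cxcr3-/- and -4.38 (-5.73 to -3.29) in WT.
Inside Erg, which encodes an ETS factor needed in blood stem cells, the member held 12 and 16 tags in Cxcr3-/- and WT monocytes against 132 and 79 in Cxcr3-/- and WT CMP/GMP (-2.78 and -2.68). A member 34729 bp outside Ikzf2, the gene of the zinc finger factor Helios, held 7 and 9 tags in Cxcr3-/- and WT monocytes against 113 and 68 in Cxcr3-/- and WT CMP/GMP (-3.33 and -3.30). Inside Bcr, a gene known from the fusion with Abl in leukaemia, the tags were 7 and 12 in Cxcr3-/- and WT monocytes against 101 and 80 in Cxcr3-/- and WT CMP/GMP (-3.17 and -3.12). The monocyte values stayed at 16 tags or fewer in these 4 members. The other 6 lay inside or nearest to 3110082I17Rik, Kcnh7 (a potassium channel), Samd4, Fer1l6, Parp11 and Dym, with log2 ratios from -3.23 to -2.55 in Cxcr3-/- and from -3.67 to -2.57 in WT.

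**Figure D4:**
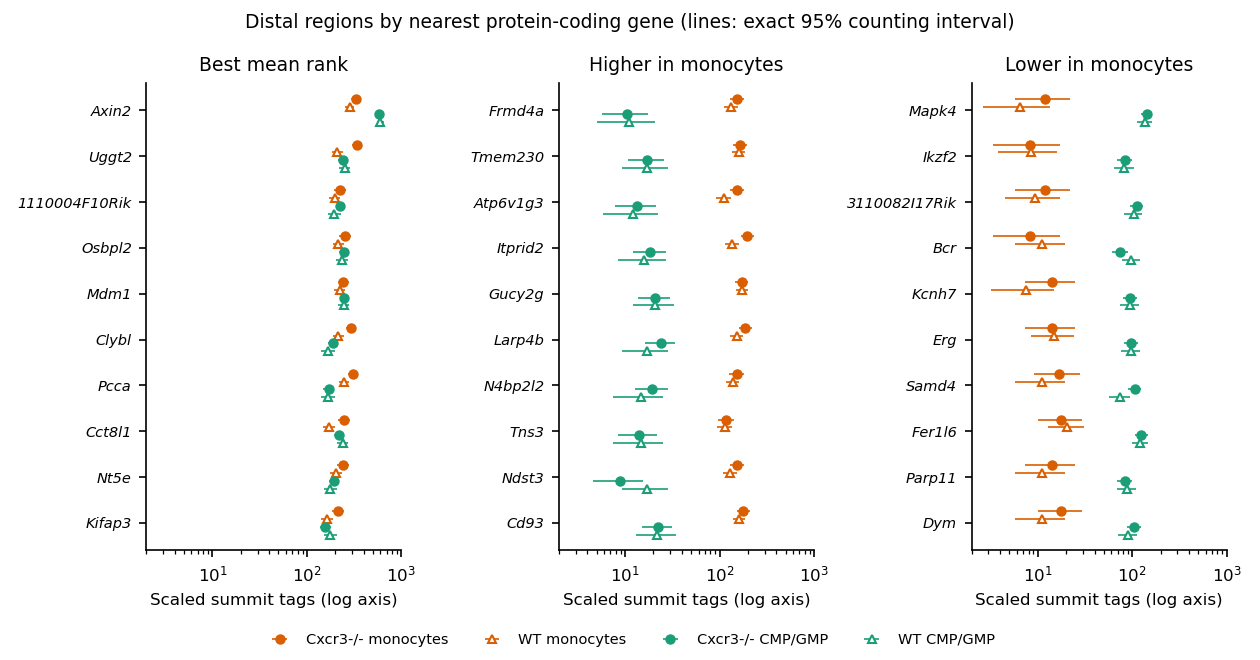
Scaled summit tags (horizontal log axes) of the 10 members of best mean rank, the 10 furthest toward monocytes and the 10 furthest toward CMP/GMP in both genotypes, each named by the nearest protein-coding gene; filled circles are Cxcr3-/- and open triangles WT, orange monocytes and green CMP/GMP, and lines are exact 95% counting intervals of 1 library. The 4 libraries sit close together for most members of best rank, while monocytes and CMP/GMP separate in the other panels, which were chosen for that.

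The members of best rank had high signal in all libraries and varied in evenness. The member ranked best over the 4 lists lay 60858 bp outside Axin2, a scaffold gene of the Wnt pathway, at chr11:109011641-109012122 and held 276 tags in Cxcr3-/- monocytes, 305 in WT monocytes, 773 in Cxcr3-/- CMP/GMP and 491 in WT CMP/GMP. It was very strong everywhere but lower in monocytes, by log2 -0.81 (-1.01 to -0.61) in Cxcr3-/- and -1.07 (-1.28 to -0.86) in WT. The coding start of 1110004F10Rik, shown above, held 191 tags in Cxcr3-/- monocytes, 212 in WT monocytes, 304 in Cxcr3-/- CMP/GMP and 161 in WT CMP/GMP, which is even after scaling (0.01 in Cxcr3-/- and 0.02 in WT). Osbpl2, an oxysterol-binding protein gene, and Mdm1, a microtubule-binding protein gene, had similar members, with log2 ratios between -0.15 and 0.04. Others of best rank were less even, such as Pcca, a carboxylase subunit gene (0.86, 0.60 to 1.12, in Cxcr3-/- and 0.53 in WT), Clybl (0.63 and 0.35), Uggt2 (0.51 and -0.25) and Cct8l1 (0.19 and -0.49). Nt5e, the gene of the ectonucleotidase CD73, had 0.31 and 0.20, and Kifap3 0.44 and -0.12.

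Among 1385 members with at least 60 tags in every library, the SD of the scaled log2 tags over the 4 libraries had a median of 0.21 and reached 0.92. The 10 smallest, from 0.02 to 0.03, included members inside Arhgap22, a Rac GTPase-activating protein gene, and Rapgef2, a Rap1 exchange factor gene, and outside Ell2, an elongation factor gene. At Arhgap22 the tags were 76 in Cxcr3-/- monocytes, 98 in WT monocytes, 125 in Cxcr3-/- CMP/GMP and 75 in WT CMP/GMP, so that the raw differences equal the differences in library scale. At Ell2 they were 164, 201, 258 and 154 in the same order. These 10 were picked as the smallest of 1385, and counting error is far larger than their SD. At Arhgap22 the log2 ratio of monocytes over CMP/GMP was -0.04 (-0.47 to 0.38) in Cxcr3-/- and 0.01 (-0.44 to 0.46) in WT. Such small values of the SD thus cannot be told from somewhat larger ones.

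Loci of blood regulators held members more densely than genes in general. In a gene body plus 10 kb on either side, 8961 of 21631 protein-coding genes had a member (41.4%), with 1.49 members per 100 kb of locus. Of the lineage factors 23 of 27 genes had one, with 5.45 members per 100 kb, and of the growth factor and cytokine receptors 12 of 14, with 4.34. The monocyte and macrophage genes followed with 18 of 26 and 3.86 per 100 kb, the actin and adhesion genes of leukocytes with 10 of 12 and 3.07, and the granule and GMP genes with 7 of 15 and 2.86. Stromal and endothelial genes had members at 8 of 11 and 2.26 per 100 kb. Below the density of all genes lay housekeeping genes (3 of 10, 1.23), T and NK cell genes (6 of 14, 1.21), chromatin architecture genes (6 of 9, 1.17), erythroid and megakaryocyte genes (1 of 11, 0.90), B cell genes (5 of 10, 0.78), hepatocyte genes (2 of 10, 0.64) and neuronal genes (3 of 10, 0.64). By the share of genes with a member, chromatin architecture, B cell and T and NK cell genes stood above the 41.4% of all genes. With 50 kb on either side 70.0% of all genes had a member, as had 9 of 11 erythroid and megakaryocyte, 10 of 10 B cell and 14 of 15 granule and GMP genes, so the shares of these lists turn with the flank. The number of members per gene followed gene length (Spearman's correlation 0.48 over the 21631 genes).

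**Figure D5:**
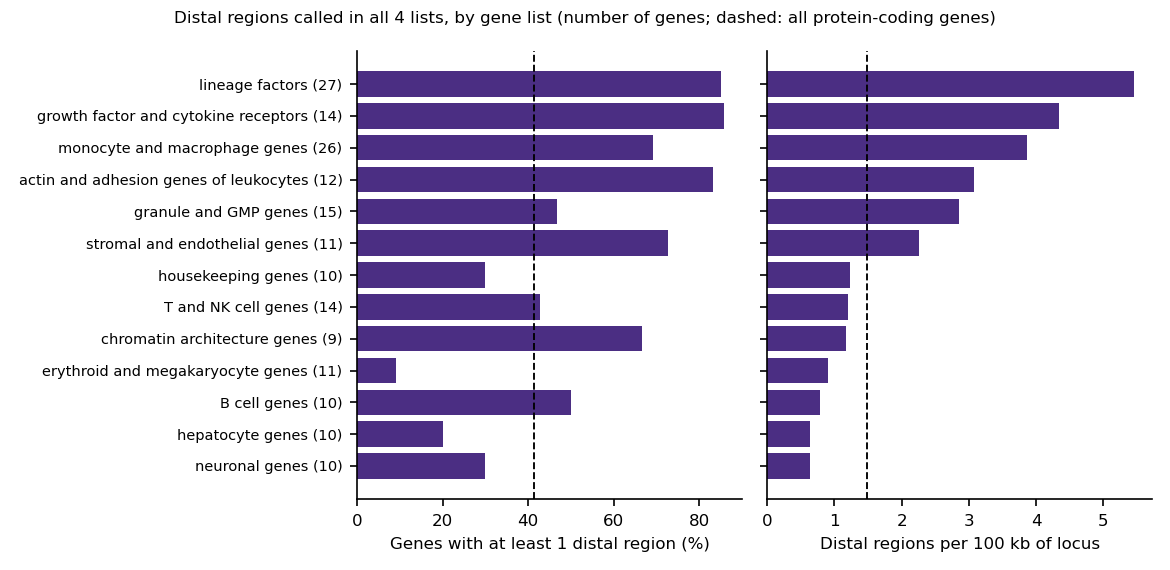
Share of genes with at least 1 member in the gene body plus 10 kb (left axis, %) and members per 100 kb of such locus (right axis) for 13 gene lists, with the number of genes in brackets; the dashed line gives all protein-coding genes. Lineage factors (5.45 per 100 kb) and receptors (4.34) lie furthest above the line at 1.49, and hepatocyte and neuronal genes (0.64 each) lie lowest.

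The same lists were set against the labels. Regions at the gene ends of the granule and GMP genes were called for 9 of 15 genes in Cxcr3-/- monocytes, 11 in WT monocytes and 14 in each CMP/GMP library, and those of the monocyte and macrophage genes for 25 of 26 in each monocyte library, 23 in Cxcr3-/- CMP/GMP and 24 in WT CMP/GMP. Over all protein-coding genes the numbers were 13959 in Cxcr3-/- monocytes, 14746 in WT monocytes, 14805 in Cxcr3-/- CMP/GMP and 14221 in WT CMP/GMP of 21631. Lists well above that share included housekeeping genes, with 10 of 10 called in every library, and leukocyte actin and adhesion genes, with 12 of 12. Lineage factors had 26, 26, 27 and 25 of 27 in the same order. A high share was thus not particular to the monocyte and macrophage genes and tells little about the cells. Hepatocyte genes had 2, 2, 2 and 1 of 10 called, in the order Cxcr3-/- monocytes, WT monocytes, Cxcr3-/- CMP/GMP and WT CMP/GMP. For T and NK cell genes the numbers were 6, 7, 9 and 7 of 14, for B cell genes 6, 8, 8 and 8 of 10, for erythroid and megakaryocyte genes 8, 9, 9 and 9 of 11, for stromal and endothelial genes 6, 7, 6 and 8 of 11, and for neuronal genes 6, 7, 8 and 7 of 10. The part of other cells in the members was not tested.

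The gene with most members was Pde4d, a cAMP phosphodiesterase gene of 1302 kb, with 43. Foxp1, a forkhead factor of blood cell differentiation, had 34, and Sgms1 (sphingomyelin synthase) and Zfhx3 had 26 each. Arid1b (a subunit of the BAF remodelling complex), Gse1 and Prkce had 25 each, Asap1 24, and Arhgap26 and the ETS factor gene Etv6 23 each. Per 100 kb, Sgms1 with 9.05 and Etv6 with 9.04 were densest among these 10. Members of a locus differed among themselves. In Foxp1 the 17 members with a ratio ran from log2 -1.07 to 2.52 in Cxcr3-/- and from -1.41 to 2.26 in WT, with 3 over 2-fold higher in monocytes in both genotypes and 2 lower.

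Lineage factor loci showed the same mixture. Of 21 lineage factor genes with a ratio in Cxcr3-/- and 19 in WT, 9 and 12 had a mean above 0. The medians over the 21 and 19 genes were -0.03 and 0.15, beside 0.11 and 0.27 over all genes with a ratio. Klf2, a factor of quiescent and migrating leukocytes, had its strongest member 9480 bp outside the neighbouring gene Eps15l1, with 42 and 52 tags in Cxcr3-/- and WT monocytes against 20 and 9 in Cxcr3-/- and WT CMP/GMP (log2 1.75, 0.95 to 2.60, and 2.15, 1.12 to 3.36). Irf8, the factor that directs progenitors to the monocyte fate, had 45 and 65 tags in Cxcr3-/- and WT monocytes against 27 and 31 in Cxcr3-/- and WT CMP/GMP (1.42 and 0.69). Both of these members were higher in monocytes in either genotype. The Klf2 member reached the minimum of 30 tags on average only through its monocyte tags, so its direction follows in part from that minimum.
Nfe2, a factor of megakaryocyte and erythroid cells, had 20 and 24 tags in Cxcr3-/- and WT monocytes against 89 and 36 in Cxcr3-/- and WT CMP/GMP (-1.48 and -0.97). It reached the minimum only through its CMP/GMP tags. Gata2, a factor of stem and progenitor cells, had 9 and 14 tags in Cxcr3-/- and WT monocytes against 38 and 23 in Cxcr3-/- and WT CMP/GMP, under the minimum of 30 on average. Spi1, which encodes PU.1, had its strongest member inside the gene with 51 and 91 tags in Cxcr3-/- and WT monocytes against 127 and 69 in Cxcr3-/- and WT CMP/GMP. Monocytes were lower than CMP/GMP in Cxcr3-/- (-0.64, -1.14 to -0.16) and even in WT (0.02, -0.45 to 0.49).
Fli1, an ETS factor, had one of the most even strong members, with 96 and 132 tags in Cxcr3-/- and WT monocytes and 162 and 98 in Cxcr3-/- and WT CMP/GMP (-0.08 and 0.05), and so did Etv6 (-0.09 and -0.02). At Runx1 the strongest of 14 members was higher in monocytes (0.59 and 0.76), and at Erg the strongest was lower in Cxcr3-/- (-0.65) with -0.41 in WT. Other lineage factors with enough tags in both genotypes included Bcl6, Cebpb, Egr1, Gfi1, Ikzf1, Lmo2, Meis1, Nr4a1, Tal1 and Zeb2, and the log2 ratios of their strongest members lay between -0.28 and 0.71 in Cxcr3-/- and between -0.78 and 1.16 in WT. The strongest members of Cebpa, Lyl1 and Myb fell short of the minimum in at least 1 genotype.

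Receptor loci leaned to monocytes in WT. The 7 receptor genes with a ratio had a mean above 0 in 5 of 7 in Cxcr3-/- (median 0.19) and in all 7 in WT (median 0.74), beside 3466 of 6208 and 3756 of 5650 over all genes with a ratio. Csf1r, the receptor for the macrophage growth factor, had 88 and 119 tags in Cxcr3-/- and WT monocytes against 108 and 59 in Cxcr3-/- and WT CMP/GMP (0.38, -0.04 to 0.80, and 0.63, 0.17 to 1.11). Csf3r, the receptor for granulocyte colony-stimulating factor, had 59 and 72 against 58 and 23 in the same pairs (0.70 and 1.27). Tgfbr2, a receptor for TGF-beta with 11 members, had 135 and 130 in Cxcr3-/- and WT monocytes against 119 and 66 in Cxcr3-/- and WT CMP/GMP at its strongest (0.86 and 0.60). Flt3 was even (-0.05 and -0.11), a receptor of progenitors. The strongest member of Csf2rb had 0.24 in Cxcr3-/- and 0.59 in WT, and that of Il10ra -0.37 and 0.86, whereas those of Ifngr1, Ifngr2, Il6ra, Kit and Tgfbr1 fell short of the minimum in at least 1 genotype.
The granule and GMP genes, which encode the stored proteases and antimicrobial proteins of granulocyte precursors, leaned the other way. None of 6 genes with a ratio had a mean above 0 in Cxcr3-/- and 2 of 7 did in WT, with medians of -1.01 and -0.98. Monocyte and macrophage genes had a mean above 0 at 10 of 16 in Cxcr3-/- and 13 of 16 in WT (medians 0.16 and 0.43). None of these lists was tested.

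Cxcr3-/- and WT were compared within each cell type, the question the knockout poses. Members differed little between genotypes. In monocytes 39 of 13451 members were over 2-fold higher in Cxcr3-/- (background 0.274%) and 43 lower (background 0.395%), which was 0.290% and 0.320%. In CMP/GMP 23 of 14438 were higher in Cxcr3-/- (background 0.122%) and 29 lower (background 0.153%), which was 0.159% and 0.201%. These shares lie near the background. Over members, log2 ratios had an SD of 0.35 in monocytes, with a median counting error of 0.29, and 0.32 in CMP/GMP, with 0.31, so that in CMP/GMP the spread hardly exceeded what counting alone gives.

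The direction of these few depended on scale. With gene ends as the scale, 67.3% of the members past 2-fold in monocytes and 21.4% of those in CMP/GMP were higher in Cxcr3-/-, against 47.6% and 44.2% with the scaling used here. With background tags, which moved all log2 ratios by -0.52 in monocytes and 0.10 in CMP/GMP, 0 of 1038 in monocytes and 49 of 59 in CMP/GMP were higher. In monocytes the median log2 ratio was 0.04 for members and -0.05 at gene ends, and it ran from -0.04 for members 2.5 to 5 kb from a gene end to 0.16 for those over 100 kb away. In CMP/GMP it was 0.02 for members and 0.07 at gene ends and ran from 0.05 to -0.02 with distance.

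The cell types shared little of the genotype difference. Of 9966 members with a ratio in both, 1 was over 2-fold higher in Cxcr3-/- in both (background 0.00486%) and 0 lower (background 0%), and 1 went in opposite directions. Spearman's correlation of the ratios over these members was -0.15. The shared member lay inside Mindy4, a predicted deubiquitinase gene, and held 38 tags in Cxcr3-/- monocytes against 22 in WT monocytes, and 52 in Cxcr3-/- CMP/GMP against 15 in WT CMP/GMP. Its log2 ratios were 1.13 (0.34 to 1.96) in monocytes and 1.08 (0.23 to 2.01) in CMP/GMP, and its Cxcr3-/- values stood above WT in both cell types at low counts. Scaled by background tags the monocyte ratio was 0.61, no longer past 2-fold.
Inside Peli2, a ubiquitin ligase of Toll-like and interleukin-1 receptor signalling, the tags were 54 in Cxcr3-/- against 27 in WT monocytes and 50 in Cxcr3-/- against 16 in WT CMP/GMP (1.35 and 0.93). Outside Lrp12, Ndufb4 and inside Oxct1 the smaller of the 2 log2 ratios lay between 0.62 and 0.83. In the other direction were members at Ripor2, Fam72a, Ninl, the ubiquitin ligase gene Fbxw7 and Smim14, with log2 ratios from -0.82 to -0.62 in monocytes and from -0.86 to -0.60 in CMP/GMP. These 10 were chosen for their size and among so many members counting error alone gives some such values.

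The largest differences in 1 cell type also sat on few tags. In monocytes the lowest was inside Arhgap23, with 13 tags in Cxcr3-/- against 47 in WT (log2 -1.51, -2.52 to -0.60), followed by Niban2, Pxn (paxillin, a focal adhesion protein), Tifab and Sting1 (the cytosolic DNA sensor adaptor), from -1.42 to -1.27. The highest were at Dyrk2 and Crbn, with 43 tags in Cxcr3-/- against 21 in WT at each (1.38), then Peli2, Tafa2 and Rasgrf2. In CMP/GMP the lowest was inside Nxpe3, with 23 tags in Cxcr3-/- against 39 in WT (-1.48, -2.29 to -0.70), followed by Cpq, Tmem252, Kcnv2 and Plcb4, from -1.34 to -1.17. The highest was 27250 bp outside Wdr5, a subunit of histone methyltransferases, with 66 tags in Cxcr3-/- against 17 in WT (1.24, 0.46 to 2.11), followed by members at Eed (a subunit of Polycomb complex PRC2), Dnm2, Armc12 and Rab37, from 1.12 to 1.19.

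Cxcr3 itself had no member. A region at an annotated end of the gene at chrX:101733698-101734465 held 23 tags in Cxcr3-/- monocytes against 41 in WT monocytes, and 84 in Cxcr3-/- CMP/GMP against 34 in WT CMP/GMP. These tags are not scaled. After scaling, the log2 ratio of Cxcr3-/- over WT was -0.49 (-1.29 to 0.28) in monocytes and 0.59 (-4.6e-05 to 1.21) in CMP/GMP, and both intervals hold 0. The region was called accessible in the Cxcr3-/- libraries too, which does not check the labels, since the deleted part is not stated.

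Neighbouring members resembled each other more in the cell type comparison the closer they lay. Spearman's correlation between the ratios of neighbours was 0.35 for 858 pairs under 1 kb apart in Cxcr3-/- and 0.05 for 939 pairs over 100 kb apart, and in WT 0.24 for 656 pairs and 0.08 for 662. In the genotype comparison of monocytes it was 0.41 under 1 kb and still 0.35 over 100 kb, and in that of CMP/GMP 0.14 and 0.10. The monocyte value was not ordered by distance. Medians of that comparison by chromosome ran from -0.09 on chromosome 11 to 0.14 on X.

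Regions on either side of the limits of the rule varied in level. At a distance of 2501 bp from a gene end, members near Pcp2 and Aspg held from 10 to 48 tags, the one near Dot1l at 2502 bp held from 29 to 60, and at exactly 2500 bp, outside the rule, regions near Cflar, Thsd4 and Tuba1b held from 14 to 85. Of members near the width limit, those near Prdm10 and Eif4e3, 1492 and 1489 bp wide, held from 38 to 115 tags. Regions of 1503, 1516 and 1524 bp near Gm46353, Tacc2 and Prkab2, outside the rule, held from 33 to 77.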

How the data were processed

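The authors deposited 1 list of accessible intervals per library, each with a score, a fold enrichment of the summit over the expected background, and −log10 p and −log10 q values. The submitters' processing notes name Trim Galore, Bowtie2 and SAMtools with the build mm10. Which program called the intervals is not stated in the labels or files used here, and the labels speak of sequencing in duplicates without saying whether runs were pooled. Whole summit tags were recovered from the deposited fold and −log10 p of each interval as the Poisson tag count that gives both, with the fold read as tags plus 1 over expected tags plus 1, and all but 3 values per library came out whole within 0.001.

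Distances were taken from RefSeq genes on GRCm38.p6. Libraries were scaled by the median ratio to the geometric mean over regions called in all 4 lists, log2 ratios were taken with no added tag, and exact 95% intervals cover counting error only. Shares have Clopper-Pearson intervals. The ratio code was checked on simulated data. Regions were named by 7 rules: best mean rank, most members per gene, largest ratio shared by the genotypes, largest ratio between genotypes, strongest at each listed factor or receptor gene, smallest spread, and nearest to the limits of the rule. The members and the 13 gene lists were chosen with earlier results of these data known. Motifs were to be searched around summits, which needs a genome not used here, so RefSeq windows around starts were searched instead. A few members that these rules name are not reported here. Nothing states that libraries came from separate cultures or animals. Python 3.11.15, numpy 2.4.6, pandas 2.3.3, scipy 1.17.1 and matplotlib 3.10.9 were used.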

Additional observations from a re-analysis of the deposited data

Results flagged for a closer look

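Several named members had a log2 ratio of Cxcr3-/- over WT of opposite sign in CMP/GMP and monocytes. Those whose 2 ratios differed by 1.23 or more, 14 members, are listed here, and smaller differences are left out. The difference was not tested because each ratio compares 1 library with 1 library. In 13 of the 14 members 1 of the ratios has a counting interval that spans 0, so its sign is not settled. The difference (CMP/GMP minus monocytes) in these was positive at Wdr5 (2.07), Pxn (1.64), Arhgap23 (1.62), Niban2 (1.49), Dnm2 (1.43), Tifab (1.43), Eed (1.32) and Rab37 (1.26). It was negative at Crbn (-1.90), Cpq (-1.68), Rasgrf2 (-1.50), Tmem252 (-1.48) and Kcnv2 (-1.36). These members were named for a large ratio in 1 of the cell types, so a large difference from the other is partly a product of that choice. The strongest member of the Il10ra locus, inside BC049352, had a CMP/GMP ratio of 0.62 (0.05 to 1.22) beside a monocyte ratio of -0.60 (-1.16 to -0.06), both intervals off 0, a difference of 1.23.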

How the results depend on the processing

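The number of members lay between 23963 and 30437 under other limits on distance and width, equal-length lists and a limit on summit distance, against 27567. A minimum of 60 tags in place of 30 left 5 members past 2-fold between genotypes in monocytes (82 with 30) and 1 in CMP/GMP (52 with 30), and 969 between cell types in Cxcr3-/- (3994 with 30) and 641 in WT (3390 with 30), with fewer members compared. With no minimum there were 691 in monocytes (479 higher in Cxcr3-/-, 212 lower), 312 in CMP/GMP (50 higher, 262 lower) and 6717 between cell types in WT (3307 higher in monocytes, 3410 lower), so the split between directions depends on this minimum. Summing all summits of a region gave 231 in monocytes and 174 in CMP/GMP. Scaling by background tags gave 1038 in monocytes and 9436 between cell types in WT. Scaling by the median summit tags, chosen after seeing the data, kept all 4 counts within 1.5 times. Genes of the lists with a member numbered 104 within 10 kb and 157 within 50 kb. Scaling by background tags moved 19 of 63 named log2 ratios by more than their counting interval. No sign of a called one among these turned, which was fixed by their choice for size and says nothing about other members. Over all members compared in WT, those over 2-fold lower in monocytes fell from 883 to 116 with this scaling. No paired analysis was possible because the labels give no replicate numbers and each group holds 1 library, so no library could be left out either. A fit of cell type with genotype as a block, on 2 pairs, was not run. Members under 30 tags on average are too shallow for a 2-fold difference to be read.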
